A study of Homo sapiens with 5 samples.

Results

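The genes of glycolysis and of the hypoxia response were taken from a list of 37 gene symbols that is defined by function, with no measured value in its rule, and 35 of them had a probe set. They were examined in 5 Affymetrix arrays of the human monocytic cell line MonoMac6, on which 19775 genes had a probe set of their own. On 4 arrays the cells had been cultured for 12 h with 1 eicosanoid at 100 nM, taken from a stock in DMSO. These were the leukotrienes B4 and C4 and the lipoxins A4 and B4. The fifth array holds unstimulated cells. No culture time is recorded for them here, and no source used here says whether they received DMSO. Leukotriene C4 carries glutathione, leukotriene B4 has a pair of hydroxyl groups and no glutathione, and the lipoxins are positional isomers of each other. Each condition was read on 1 array, so no value has a measured error, no test was possible, and every difference is a difference between arrays that may be technical. All differences from unstimulated cells share the same unstimulated array.

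Glycolysis splits glucose into pyruvate in the cytosol, and lactate dehydrogenase turns pyruvate into lactate where the mitochondria do not take it up. Hypoxia-inducible factor, whose alpha subunit HIF-1α is encoded by HIF1A, is destroyed in oxygenated cells after prolyl hydroxylases of the EGLN family mark it. When oxygen is low it persists and raises transcription of many glycolytic genes and of genes such as BNIP3, ADM and CA9. In activated monocytes and macrophages the same factor and the same enzymes are known to be induced in the presence of oxygen.

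Of the 35 genes whose symbol a probe set carries alone, 34 were measured, meaning that the scaled signal lay above a floor of 48.7 on at least 1 array. SLC16A3, the lactate exporter, and CA9, a carbonic anhydrase induced by hypoxia, had no probe set that could be used here. HK3, a hexokinase of myeloid cells, lay under the floor on all 5 arrays, with signals between 5.96 and 22.3. The 34 measured genes were 2 glucose transporters, 11 genes of upper glycolysis, 6 of lower glycolysis, 4 of the lactate and pyruvate branch, 3 of oxygen sensing and 8 hypoxia targets. Of these, 32 lay above the floor on all arrays. The scaled signal is in arbitrary units, and the affinity of the probes differs between probe sets, so signals are compared between arrays and not between genes. In RNA from a whole culture, fewer cells in a given state and less RNA per cell cannot be told apart.

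The arrays were alike in most of their overall properties. Between 51.0% and 55.9% of probe sets lay above the floor, and the ratios of 3′ to 5′ control probe sets were between 0.996 and 1.06 for GAPDH and between 1.10 and 1.13 for ACTB. Of 14 monocyte markers, 12 had a probe set and 8 to 11 lay above the floor on each array, led by LYZ, the lysozyme of phagocytes, at 36107 to 49095. The median signal of the 12 was 158 to 201, and 4 of them exceeded 500 on each array. CTSG, a protease of immature myeloid cells, lay between 24573 and 37585. CD14 lay between 188 and 319 and CSF1R between 223 and 310, while CD163 and FCN1 were near or under the floor. Other cell types' markers were mostly dim. Their median signals were 29.1 to 48.0 for T and NK cells, 67.0 to 90.6 for B cells, 40.2 to 72.7 for erythroid cells and platelets, 44.8 to 92.1 for fibroblasts and endothelium, and 6.75 to 52.8 for epithelium and liver. Exceptions were NKG7 (7124 to 8196), PECAM1 (4646 to 5138) and KRT18 (675 to 843), and their part in the results below was not tested. The middle control probe set for 18S ribosomal RNA read 913, 3073, 365 and 1056 on the leukotriene B4, leukotriene C4, lipoxin A4 and lipoxin B4 arrays, against 186 on the unstimulated array, and its part was not tested either.

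The genes of glycolysis and of the hypoxia response differed little between the arrays. At least 1.5-fold from unstimulated cells, a log2 difference of 0.585, lay 2 of 34 genes with leukotriene B4, 0 with leukotriene C4, 1 with lipoxin A4 and 1 with lipoxin B4. Over all 15374 measured genes the same threshold was passed by 10.6% with leukotriene B4, 12.2% with leukotriene C4, 9.87% with lipoxin A4 and 11.1% with lipoxin B4. The members' shares were no larger than this background of all genes, but more of the members were bright. Most of that background came from dim genes. Among the 8277 genes with a mean signal under 500 it was 18.3%, 21.2%, 17.7% and 18.7% with leukotrienes B4 and C4 and with lipoxins A4 and B4, and among the 7097 brighter genes it was 1.55%, 1.73%, 0.705% and 2.16%. Of the members, 28 were in the brighter class, and none of these 28 was 1.5-fold from unstimulated on any array. Only PFKFB3 and ENO2, among the 6 dim members, passed the threshold. Both did so with leukotriene B4, PFKFB3 alone with lipoxin A4 and ENO2 alone with lipoxin B4. The 6 dim members are too few for their share to be set against that of the dim genes. No member was 2-fold from unstimulated, against 2.43%, 2.85%, 2.39% and 2.47% of all genes.

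**Figure D1:**
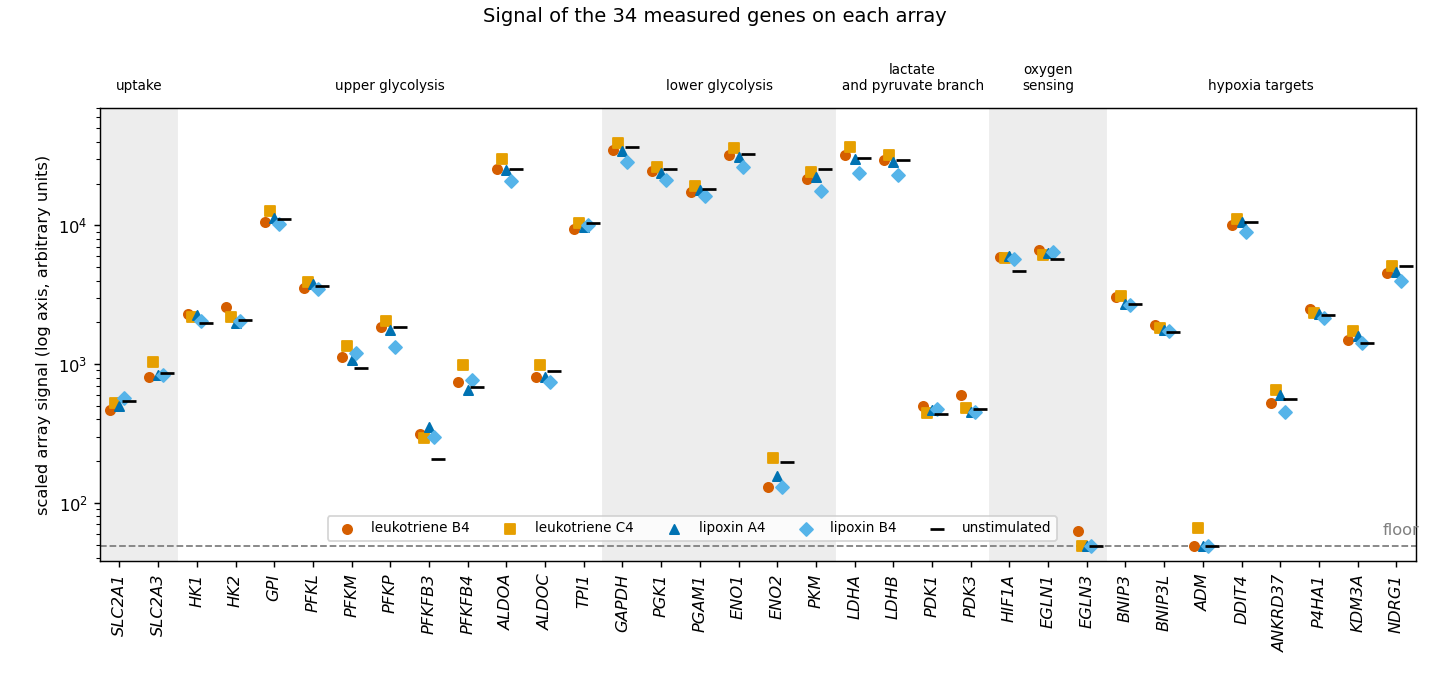
Scaled signal, on a log axis, of each of the 34 measured genes on the 5 arrays, 1 point per array, with values under the floor of 48.7 drawn at the floor. Genes are ordered by role, and for most of them the 5 points lie close together. The points of PFKFB3 and ENO2 spread most, and EGLN3 and ADM have 1 point each above the floor.

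PFKFB3 makes the sugar bisphosphate that activates phosphofructokinase and so sets the pace of glycolysis. Its signal was 311 with leukotriene B4, 295 with leukotriene C4, 353 with lipoxin A4 and 299 with lipoxin B4, against 206 in unstimulated cells. The unstimulated array was thus the lowest and the lipoxin A4 array the highest. The log2 differences were 0.59, 0.51, 0.77 and 0.53 in the same order of compounds, which placed PFKFB3 at ranks 519, 1126, 240 and 632 from the top among 15374 measured genes. The gene had 1 probe set, so no second probe set bears on these values. With a floor of 243, which lies above its unstimulated signal, they became lower bounds of 0.35, 0.28, 0.54 and 0.30, none past 1.5-fold. With the values as deposited the difference with leukotriene B4 was 0.56, under the threshold.

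ENO2, the enolase isoform of neurons that many cell types also express, was lower than in unstimulated cells on some arrays. It had signals of 130 with leukotriene B4, 212 with leukotriene C4, 156 with lipoxin A4 and 129 with lipoxin B4, and 197 in unstimulated cells. The leukotriene C4 and unstimulated arrays were the high ones, and the leukotriene B4 and lipoxin B4 arrays the low ones. The log2 differences were -0.60, 0.10, -0.34 and -0.62 for leukotrienes B4 and C4 and for lipoxins A4 and B4. After quantile normalization the value with lipoxin B4 was -0.52, under the threshold. ENO2 is also read by 1 probe set, and its mean signal was 161. Of all genes with a mean signal under 500, 17.7% to 21.2% were at least 1.5-fold from unstimulated, depending on the array. The share among genes near the signal of ENO2 was not counted.

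HIF1A, on chromosome 14, had signals of 5962 with leukotriene B4, 5803 with leukotriene C4, 5987 with lipoxin A4 and 5731 with lipoxin B4, against 4724 in unstimulated cells. The 4 stimulated arrays lay within a log2 range of 0.06 and all above the unstimulated one, by 0.34, 0.30, 0.34 and 0.28 in that order. These differences were below 1.5-fold. The unstimulated array was the lowest of the 5, as for HIF1A, in 39.3% of the 7097 genes with a mean signal of at least 500, and at least 1.2-fold below each stimulated array, as here, for 2.42% of them. The cut of 1.2-fold lies just under the smallest fold of HIF1A itself, 1.21 with lipoxin B4, so the 2.42% does not show that HIF1A stands out. HIF1A has a single probe set as well, and after quantile normalization its differences were 0.28, 0.18, 0.27 and 0.23. Those with leukotriene C4 and lipoxin B4 were then under 1.2-fold.

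The promoters of PFKFB3 and ENO2, the members that passed 1.5-fold, and of LDHA and PGK1, well-known targets of hypoxia-inducible factor whose signals differed from unstimulated by less than 1.5-fold, are shown to let their motifs be compared. The motif searched for is ACGTG, a form of the core of the hypoxia response element, read as CACGT on the other strand. Other forms of the core, such as GCGTG, were not searched for and are not marked or counted. RefSeq gives 1 start of transcription for ENO2 and PGK1 and 2 each for PFKFB3 and LDHA. For these last genes the start with more matches was chosen, and the window of their other start held 0. The 250 bases before the start are given from RefSeq on GRCh38.p14, on the plus strand and 5′ to 3′, with every ACGTG or CACGT in capitals. They lie at chr10:6202682-6202931 for PFKFB3, chr12:6914330-6914579 for ENO2, chr11:18394313-18394562 for LDHA and chrX:78103998-78104247 for PGK1.
PFKFB3: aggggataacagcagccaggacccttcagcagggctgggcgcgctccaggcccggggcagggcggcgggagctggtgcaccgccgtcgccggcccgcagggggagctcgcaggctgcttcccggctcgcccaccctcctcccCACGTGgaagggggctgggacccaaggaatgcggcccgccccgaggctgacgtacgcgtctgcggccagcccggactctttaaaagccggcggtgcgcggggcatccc
ENO2: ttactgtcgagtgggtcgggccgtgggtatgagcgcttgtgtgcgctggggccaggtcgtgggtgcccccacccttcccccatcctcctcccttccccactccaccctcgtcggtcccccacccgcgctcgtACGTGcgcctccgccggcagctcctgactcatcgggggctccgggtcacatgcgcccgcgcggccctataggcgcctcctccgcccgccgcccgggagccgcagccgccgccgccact
LDHA: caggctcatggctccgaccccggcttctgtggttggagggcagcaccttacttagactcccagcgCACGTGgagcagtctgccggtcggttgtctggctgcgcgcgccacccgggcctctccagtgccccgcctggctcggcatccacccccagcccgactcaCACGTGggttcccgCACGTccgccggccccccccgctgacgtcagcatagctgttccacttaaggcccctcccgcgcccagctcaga
PGK1: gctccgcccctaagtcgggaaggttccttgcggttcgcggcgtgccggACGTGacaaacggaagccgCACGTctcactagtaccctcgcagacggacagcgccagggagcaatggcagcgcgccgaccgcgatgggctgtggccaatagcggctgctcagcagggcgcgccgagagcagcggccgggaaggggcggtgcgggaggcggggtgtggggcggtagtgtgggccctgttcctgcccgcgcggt
In these windows PFKFB3 has 1 match in the form CACGTG, in which both orientations overlap and which is also the E-box bound by other factors. ENO2 has 1 ACGTG, PGK1 has 1 in each orientation, and LDHA has 2 of the overlapping form and 1 CACGT alone. RefSeq gave 34 of the 37 listed genes at least 1 promoter window, 62 windows in all. The motif stood in the 250 bases of 24 of these 62 windows (38.7%), against 6501 of 35116 windows of all genes (18.5%). Counted by gene, 21 of 34 listed genes (61.8%) had it in some window, against 3310 of 12209 measured genes (27.1%). These 34 include HK3, SLC16A3 and CA9, which were not among the measured genes. Genes with more windows have more places for a match, and the listed genes had 62 windows, against 35116 for 27305 genes in all. The list holds known targets of hypoxia-inducible factor, so its higher share is not an independent result. The form CACGTG stood in 12.9% of the listed genes' windows and in 6.34% of all windows. A match describes the letters in this window only. PFKFB3, at 1 of its 2 starts, and ENO2 both hold it, and PFKFB3 was higher on the leukotriene B4 array while ENO2 was lower.

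**Figure D2:**
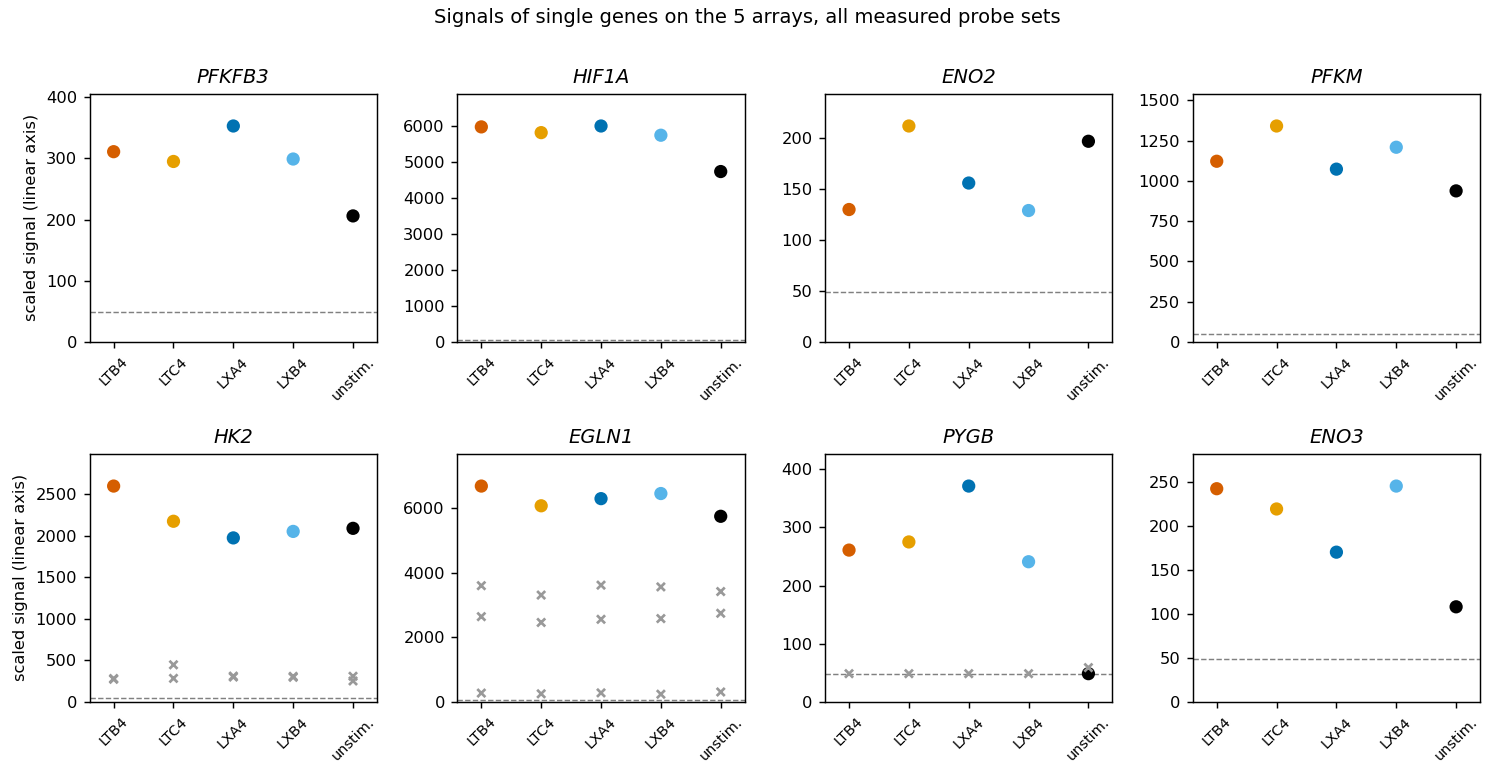
Scaled signal, on a linear axis from 0, of 8 genes on the 5 arrays; filled points are the probe set used for the gene, grey crosses its other measured probe sets, and the dashed line the floor of 48.7. PFKFB3 and HIF1A have their lowest point on the unstimulated array, ENO2 is high on the leukotriene C4 and unstimulated arrays, and PYGB is under the floor on the unstimulated array alone.

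The glucose transporters differed by less than 1.5-fold and in no single direction. SLC2A1, the basal glucose transporter, had signals of 468, 525, 497 and 570 with leukotrienes B4 and C4 and with lipoxins A4 and B4, against 544 in unstimulated cells. SLC2A3, the high-affinity transporter of monocytes and neurons, had 801, 1036, 840 and 840, against 861. Its leukotriene C4 array was the highest, at a log2 difference of 0.27, and its other probe sets gave 0.24 and 0.19 there. The first of these was highest with leukotriene B4, at 0.35.

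Hexokinases trap glucose as glucose phosphate. HK1 had signals of 2303, 2197, 2248 and 2049 on the leukotriene B4, leukotriene C4, lipoxin A4 and lipoxin B4 arrays, against 1986 in unstimulated cells. HK2, the isoform induced by hypoxia and by activation of immune cells, had 2595, 2172, 1972 and 2050 on the same arrays, against 2087. Its leukotriene B4 array stood highest, with a log2 difference of 0.31. Its other 2 probe sets gave 0.16 and -0.18 with leukotriene B4, and 0.82 and -0.12 with leukotriene C4.

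Phosphofructokinase commits sugar to glycolysis, and its isoforms are encoded by PFKL, PFKM and PFKP. PFKM, the muscle isoform, had signals of 1122, 1341, 1073 and 1209 with leukotrienes B4 and C4 and with lipoxins A4 and B4, against 938 in unstimulated cells. The unstimulated array was the lowest for this gene, with log2 differences of 0.26, 0.52, 0.19 and 0.37, read by 1 probe set. PFKP, the platelet isoform, had 1836, 2059, 1763 and 1333, against 1853, so that its lipoxin B4 array stood low at -0.48. With the mean of its 2 probe sets this value was -0.20. PFKL, the liver isoform, had 3547, 3887, 3756 and 3490, against 3643, and differed by at most 0.09 in size. PFKFB4, a relative of PFKFB3, had 740, 988, 650 and 772, against 689. It was highest with leukotriene C4, at 0.52, and its dimmer probe set gave 0.46 there.

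The other enzymes of upper glycolysis are read by bright probe sets. GPI, which interconverts glucose and fructose phosphates, had signals of 10530, 12708, 11256 and 10153 with leukotrienes B4 and C4 and with lipoxins A4 and B4, against 11091 in unstimulated cells. ALDOA, the main aldolase of most tissues, had 25664, 29911, 25193 and 20728, against 25353. TPI1, triosephosphate isomerase, had 9442, 10442, 9728 and 9987, against 10321. ALDOA was highest on the leukotriene C4 array and lowest on the lipoxin B4 array, with log2 differences of 0.24 and -0.29. Its other bright probe set gave a like order, from 28536 with leukotriene C4 to 19985 with lipoxin B4, while its dimmest one was highest with lipoxin B4, at 4808. ALDOC, the brain aldolase, had 804, 982, 813 and 744, against 899.

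Lower glycolysis, in which ATP and NADH are gained, stood low on the lipoxin B4 array. GAPDH, the dehydrogenase of this stretch, had signals of 35105, 39236, 34545 and 28580 with leukotrienes B4 and C4 and with lipoxins A4 and B4, against 36702 in unstimulated cells. PGK1, the first of the ATP-forming kinases, had 24544, 26436, 23862 and 21107, against 25487. In both genes the leukotriene C4 array was the highest and the lipoxin B4 array the lowest. PGAM1, phosphoglycerate mutase, had 17439, 19176, 17854 and 16313, against 18313. ENO1, the common enolase, had 32182, 35900, 31214 and 26483, against 32891. PKM, pyruvate kinase, had 21727, 24382, 22303 and 17600, against 25482. PGAM1 and ENO1 had the same highest and lowest arrays as GAPDH, while PKM was highest in unstimulated cells. With lipoxin B4 the log2 differences were -0.36 for GAPDH, -0.27 for PGK1, -0.17 for PGAM1, -0.31 for ENO1 and -0.53 for PKM. The 6 probe sets of GAPDH gave -0.35 to -0.49, but the dimmer probe set of PKM gave -0.10. Of the other 5 probe sets of PGK1, 3 were above unstimulated with lipoxin B4, at 7780 against 7511, 4560 against 4159 and 157 against 124.

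The lactate dehydrogenases stood low on the lipoxin B4 array too. LDHA, whose enzyme favours lactate formation, had signals of 32140, 36644, 30280 and 23976 with leukotrienes B4 and C4 and with lipoxins A4 and B4, against 30542 in unstimulated cells. LDHB, which favours the return to pyruvate, had 29388, 32115, 28489 and 23060, against 29427. Both were lower with lipoxin B4 by a log2 difference of -0.35. PDK1 and PDK3 switch off pyruvate dehydrogenase, and PDK1 is a known target of hypoxia-inducible factor. PDK1 had 502, 447, 465 and 474, against 435, and PDK3 had 597, 484, 450 and 453, against 477. The dimmer probe sets of PDK1 disagreed, at -0.25 and 0.84 with leukotriene C4 and at -0.64 and 0.77 with lipoxin B4. PDK3 was highest with leukotriene B4, at 0.33, while its 5 probe sets were up to 0.92 apart on that array.

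The low values on the lipoxin B4 array moved with signal strength. The 10 members with a mean signal of at least 10000 were all below unstimulated there, with a median log2 difference of -0.30, and 415 of all 533 genes of that class were below 0 as well, with a median of -0.13. On the other arrays the medians of the 10 members were -0.06 with leukotriene B4, 0.11 with leukotriene C4 and -0.04 with lipoxin A4, against 0.01, 0.12 and 0.00 for the class. Quantile normalization gives every array the same distribution of signals, and after it the 10 members had medians of -0.04, -0.005, -0.01 and -0.03 with leukotrienes B4 and C4 and with lipoxins A4 and B4. In the plot of differences against signal, the running median of all genes bends down at the bright end on the lipoxin B4 array, where these enzymes lie. Whether the bend comes from the cells or from the array was not tested.

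**Figure D3:**
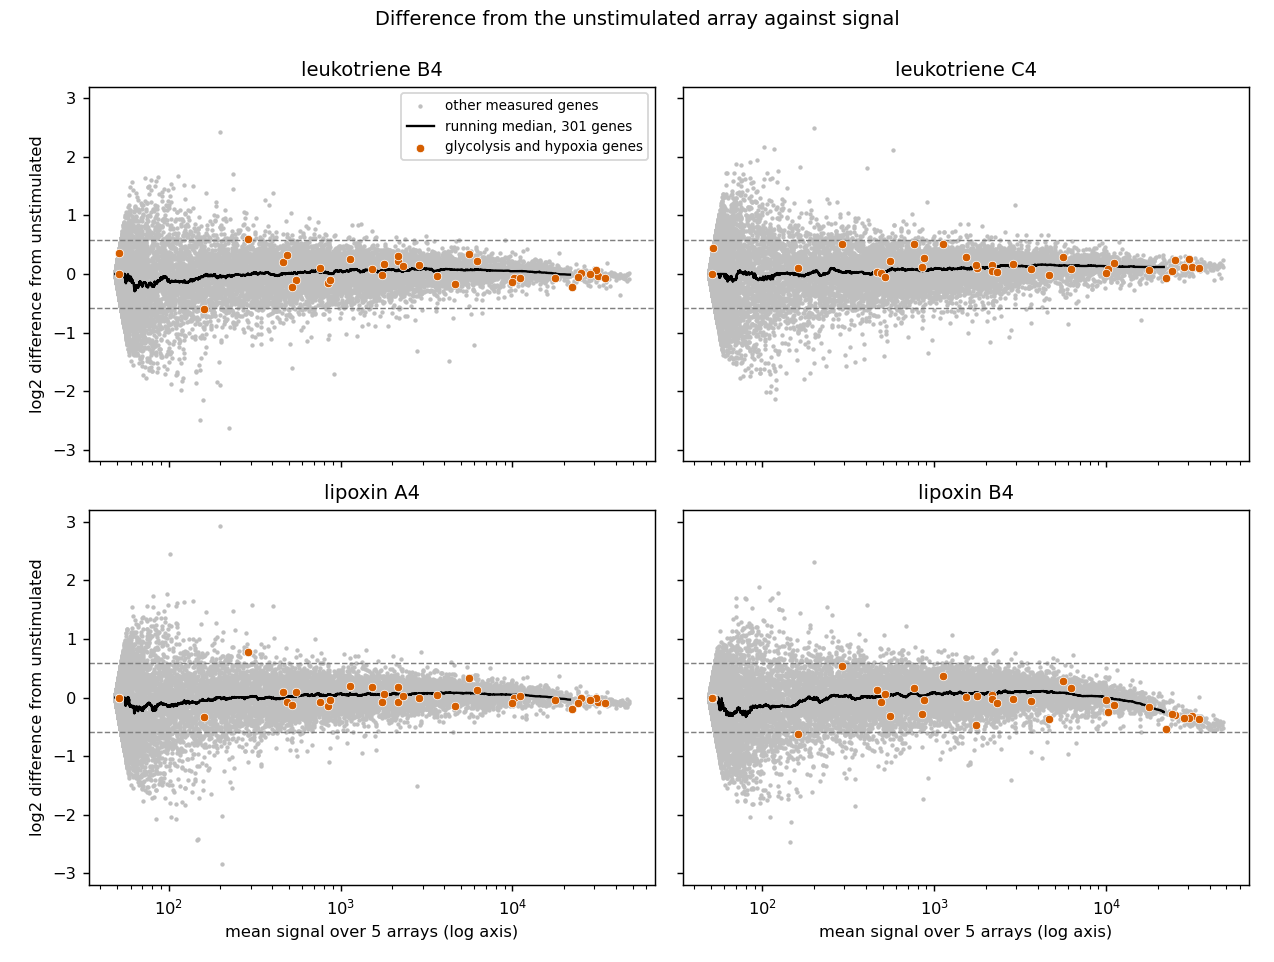
Log2 difference of each stimulated array from the unstimulated array against the mean signal over the 5 arrays (log axis), for the 34 measured glycolysis and hypoxia genes (orange) and all other measured genes (grey), with the running median of all genes in black and dashed lines at 1.5-fold. The spread is widest for dim genes, and on the lipoxin B4 array most of the brightest genes, the bright glycolytic enzymes among them, lie below 0.

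Oxygen sensing is represented by HIF1A, described above, and by the prolyl hydroxylases. EGLN1, the main oxygen sensor among them, had signals of 6678, 6068, 6289 and 6447 with leukotrienes B4 and C4 and with lipoxins A4 and B4, against 5743 in unstimulated cells. Its log2 differences on this probe set were 0.22, 0.08, 0.13 and 0.17. Its other 3 probe sets gave values between -0.36 and 0.08. The brightest of these was slightly above unstimulated on 3 arrays, at 3598 on the leukotriene B4 array and at 3614 and 3560 on the lipoxin A4 and B4 arrays, against 3416, while the other two were below unstimulated on all 4. EGLN3, itself a strong hypoxia target, reached 62.4 on the leukotriene B4 array and lay under the floor on the other 4, which makes it at least 1.28-fold higher with leukotriene B4 than in unstimulated cells. With a floor of 17.4 the log2 difference was 1.38. At that floor 23.9% of all measured genes were at least 1.5-fold from unstimulated with leukotriene B4. The share past the larger difference of EGLN3 was not counted.

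Hypoxia targets outside glycolysis showed no difference of 1.5-fold at the floor of 48.7. NDRG1, a stress-induced gene, had signals of 4546, 5072, 4606 and 3982 with leukotrienes B4 and C4 and with lipoxins A4 and B4, against 5114 in unstimulated cells. KDM3A, a histone demethylase, had 1497, 1737, 1605 and 1429, against 1415. DDIT4, an inhibitor of mTORC1, had 10027, 11164, 10554 and 8923, against 10541. NDRG1 and DDIT4 had their lowest value with lipoxin B4, and KDM3A its highest with leukotriene C4. BNIP3 and BNIP3L, receptors for the removal of mitochondria, lay between 2680 and 3089 and between 1693 and 1909 over the 5 arrays. The dimmer probe set of BNIP3 was below unstimulated on every stimulated array, with log2 differences between -0.33 and -0.18. P4HA1, a collagen prolyl hydroxylase, lay between 2135 and 2499. ANKRD37 was 655 with leukotriene C4 and 449 with lipoxin B4, its highest and lowest values, against 558 in unstimulated cells. Its dimmer probe set was above unstimulated on both arrays, by 0.16 and 0.26. ADM, the vasodilator peptide adrenomedullin, was above the floor on the leukotriene C4 array alone, at 66.2, which is at least 1.36-fold above unstimulated. With the floor of 17.4 its log2 differences were 0.46, 1.44, 0.66 and 0.88 with leukotrienes B4 and C4 and with lipoxins A4 and B4. At that floor it passed 1.5-fold with leukotriene C4 and both lipoxins, at signals that the main floor treats as unmeasured. Over the 8 measured targets the median log2 differences were 0.04, 0.14, 0.02 and -0.06, against 0.00, 0.06, 0.00 and 0.00 over all measured genes. Over the genes with a mean signal of 500 to 10000, where most of the targets lie, the medians were 0.06, 0.11, 0.06 and 0.07.

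**Figure D4:**
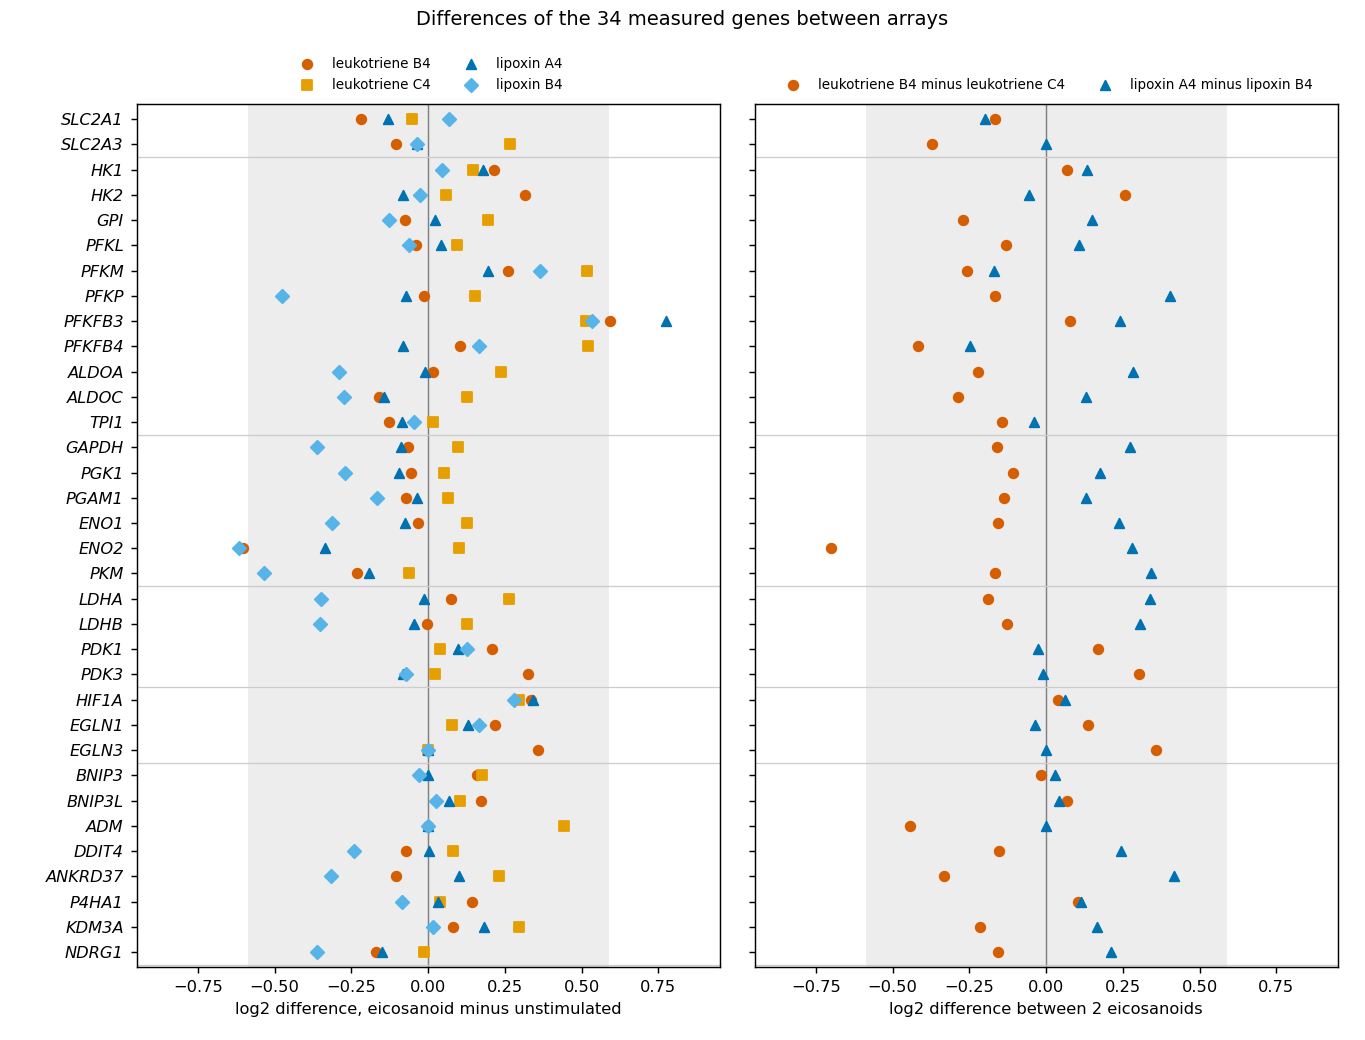
Log2 differences of the 34 measured genes, from the unstimulated array on the left and between related compounds on the right, 1 point per comparison, with the shaded band marking less than 1.5-fold. On the left only PFKFB3 and ENO2 have points outside the band, and on the right only ENO2.

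The related compounds were compared directly, as 2 pairs at the same dose and time. Leukotriene B4 was set against leukotriene C4, and 1 of 34 genes was 1.5-fold apart, against 10.0% of all measured genes. That gene was ENO2, at 130 with leukotriene B4 and 212 with leukotriene C4, a log2 difference of -0.70. Over the members the median was -0.16, with 24 of 34 below 0, against -0.04 over all measured genes, of which 8584 of 15374 were below 0. The bright genes shared this shift: the 10 members of at least 10000 had a median of -0.16, and all 533 genes of that class -0.12, with 446 below 0. After quantile normalization the members' median was -0.04. SLC2A3 (-0.37) and PFKFB4 (-0.42) were lower with leukotriene B4 than with leukotriene C4, and HK2 (0.26) and PDK3 (0.30) higher. Other probe sets of these genes gave -0.67 and -0.06 for HK2, and 0.10 and -0.20 for SLC2A3. Those of PDK3 gave -0.39, 0.07, -0.29 and -0.05, mostly opposite to the probe set used. The dimmer probe set of PFKFB4 gave -0.87. Of these genes, only PFKFB4 thus had the same direction on all its probe sets. With 1 array for each compound these differences have no interval.

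Lipoxin A4 was set against lipoxin B4, its positional isomer, and 0 of 34 genes were 1.5-fold apart, against 6.99% of all measured genes. The members' median was 0.13, with 24 of 34 above 0, against 0.00 over all measured genes, of which 6951 of 15374 were above 0. Here too bright genes shared the shift, with a median of 0.26 for the 10 members of at least 10000 and 0.14 for all 533 genes of that class, 472 of them above 0. After quantile normalization it was 0.04. The members furthest apart were ANKRD37, at 599 with lipoxin A4 and 449 with lipoxin B4 (0.42), and PFKP, at 1763 and 1333 (0.40). The dimmer probe set of each gene went the other way, at -0.10 for ANKRD37 and -0.27 for PFKP. HIF1A differed by 0.06 and PFKFB3 by 0.24. The absence of a 1.5-fold difference on single arrays does not show that the isomers act alike.

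With no replicate arrays, probe sets of the same gene were set against each other. They were read on the same arrays, so their range shows how far probe sets disagree. It does not measure the error between arrays or cultures. For the 17 or 18 members with several informative probe sets, the median range between them was 0.41 with leukotriene B4, 0.21 with leukotriene C4, 0.14 with lipoxin A4 and 0.40 with lipoxin B4. Of 34 members, 32, 24, 25 and 30 differed from unstimulated by no more than that median range. The 34 include 15 genes with 1 measured probe set, which have no range of their own. All probe sets of a gene had the same sign for 3, 12, 7 and 5 genes.

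Other genes of carbon metabolism were examined as lists. Of 7 genes of the pentose phosphate pathway 6 were measured, and 0 were 1.5-fold from unstimulated on any array. Of 18 genes of pyruvate dehydrogenase and the tricarboxylic acid cycle 15 were measured, and those past 1.5-fold were both on the lipoxin B4 array. OGDH, a subunit of oxoglutarate dehydrogenase, was lower there, at 1065 against 1815 (-0.77), and its other probe sets gave -0.19 and -0.52. MPC1, a subunit of the mitochondrial pyruvate carrier, was higher, at 4328 against 2873 (0.59).

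Of 11 genes of glycogen metabolism and gluconeogenesis all were measured, and PYGB, the brain form of glycogen phosphorylase, was the one past 1.5-fold. Its signals were 261 with leukotriene B4, 275 with leukotriene C4, 371 with lipoxin A4 and 241 with lipoxin B4, against 41.9, under the floor, in unstimulated cells. PYGB was thus at least 5.37-fold, 5.65-fold, 7.63-fold and 4.95-fold higher, at rank 1 of 15374 measured genes on every stimulated array. These 4 values share the unstimulated array, and its 1 low reading sets them all. The gene's other probe set was at 59.1 in unstimulated cells and under the floor on the 4 stimulated arrays. Among 11 isoforms of liver, muscle or testis, 6 were measured, and ENO3, the muscle enolase, was the one past 1.5-fold. It had 242, 219, 170 and 245 with leukotrienes B4 and C4 and with lipoxins A4 and B4, against 108 in unstimulated cells, or log2 differences of 1.16, 1.02, 0.66 and 1.18 on its 1 measured probe set.

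Of 10 further genes of oxygen sensing and its metabolic branch 8 were measured. VHL, the ubiquitin ligase subunit that removes hydroxylated HIF-1α, had signals of 743, 593, 652 and 503 with leukotrienes B4 and C4 and with lipoxins A4 and B4, against 865 in unstimulated cells. Its log2 differences were -0.22, -0.54, -0.41 and -0.78, so it passed 1.5-fold with lipoxin B4. EPAS1, which encodes HIF-2α, had 143, 65.5, 116 and 56.7, against 141, and so stood low with leukotriene C4 (-1.10) and lipoxin B4 (-1.31), in a range close to the floor. Its other measured probe set was above the floor with leukotriene C4 alone, at 53.1, and so did not share the lower value there. PDK2 passed the threshold with leukotriene B4 (-0.70) and lipoxin B4 (-0.60), and its other probe set gave -0.65 and -0.01. PFKFB2 was lower with lipoxin B4 (-0.76), and its other measured probe sets gave -0.21 and 0.00 there. Of 20 further hypoxia targets 19 were measured. CA12, a membrane carbonic anhydrase, was higher with leukotrienes B4 and C4 (1.22 and 1.18) on the probe set used, of 5 measured ones that disagreed. The others gave 0.00, -0.21, -0.28 and -0.72 with leukotriene B4. With leukotriene C4 they gave 0.47, -0.39, 0.86 and -0.82. ANGPTL4 was at least 1.53-fold higher with lipoxin B4. No other gene of these 2 lists was 1.5-fold from unstimulated.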

How the data were processed

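The authors deposited 1 intensity signal per probe set and array, on a linear scale, for 54675 probe sets, 62 of them controls. They used GCOS 1.4, per the submitters' processing notes, and no source used here gives the signal algorithm. The deposited signals had a trimmed mean near 500 on all arrays. Genes were named from the platform annotation, which gives 41097 probe sets 1 symbol and 1801 several, while 11777 were not listed.

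Signals were converted to log2, each array was scaled by 1 factor (0.978 to 1.028) to an equal median over the upper 50% of probe sets, and values under the 50th percentile of mean log2 signal (48.7) were set to that floor. A probe set counts as measured if any array exceeds the floor (36802 do). Each of 15374 genes is given by its brightest measured probe set over the 5 arrays, GAPDH by a control probe set. A difference with 1 side at the floor is a bound.

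With 1 array per group there was no test, p-value or standard error, and the number of arrays limits the precision. Groups came from the sample titles. Counts at 1.5-fold and 2-fold stand beside the share of all measured genes past the same fold. The counting was tested on simulated data. The members, the other lists and the comparisons were chosen with earlier results of these data known. Signals on all arrays are given for members at least 1.5-fold from unstimulated on any array, for HIF1A, EGLN1 and EGLN3 and for the main glycolytic enzymes and transporters, and up to 4 genes past 1.5-fold are named from each other list. Values of further members are ranges, or were chosen after they were seen. The alternatives were floors at the 30th and 70th percentile, the deposited values without scaling, quantile normalization, averaging a gene's probe sets and leaving out control probe sets. The work used Python 3.11.15, numpy 2.4.6, pandas 2.3.3 and matplotlib 3.10.9.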

Additional observations from a re-analysis of the deposited data

Results flagged for a closer look

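Control probe sets for 18S ribosomal RNA enter no comparison, and all 3 read higher on the stimulated arrays than on the unstimulated array. The 3′ probe set was 2.98-fold higher with leukotriene B4, 3.41-fold with leukotriene C4, 1.9-fold with lipoxin A4 and 2.15-fold with lipoxin B4. The 5′ probe set was 3.65-fold, 14.0-fold, 1.63-fold and 4.62-fold higher in the same order, and the middle one 4.9-fold, 16.5-fold, 1.96-fold and 5.67-fold. The unstimulated array is the lowest for these controls, as it is for PFKFB3, HIF1A and PYGB. It is also the lowest for 32.7% of the 11018 genes above the floor on all 5 arrays. Among the stimulated arrays the controls are highest with leukotriene C4 and lowest with lipoxin A4, where PFKFB3, HIF1A and PYGB are highest. Whether the ribosomal RNA signal has a part in the values of these genes was not tested.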

How the results depend on the processing

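The members' medians kept their sign under the 6 alternatives except those at or near 0: with leukotriene B4, -0.0010 became 0.0078 at the lower floor, 0.0203 after quantile normalization and 0.0110 with the mean of all probe sets, and with lipoxin A4, -0.0108 became 0.0000 with that mean. With the floor at the 30th percentile (17.4) the members at least 1.5-fold from unstimulated were 3 with leukotriene B4 (EGLN3 added), 2 with leukotriene C4 (EGLN3 and ADM), 2 with lipoxin A4 and 2 with lipoxin B4, ADM being added to each of the lipoxins, and 3 between leukotrienes B4 and C4, while 23.5% to 25.5% of all measured genes passed 1.5-fold from unstimulated at that floor. At least 2-fold were then 1 with leukotriene B4 and 1 with leukotriene C4. With the floor at the 70th percentile (243), which leaves 31 members measured, 0 members were 1.5-fold from unstimulated with leukotriene B4, lipoxin A4 or lipoxin B4, and 0 between the leukotrienes. After quantile normalization the count with lipoxin B4 was 0 and the median between leukotrienes B4 and C4 was -0.0449; the 10 brightest members' median with leukotriene C4, 0.11 before it, was -0.0050. With the values as deposited the count with leukotriene B4 was 1 (ENO2), and with the mean of all probe sets the count between the leukotrienes was 2 (PFKFB4 and ENO2). A lower floor lets in dimmer values and a higher one replaces them by its own level; the cause of the other shifts was not tested. Single log2 differences moved by at least 0.1 in 42 of 204 with the mean of all probe sets, 37 with quantile normalization, 10 and 4 of 186 with the lower and higher floor, 1 without control probe sets and 0 as deposited. The planned count of members on the same side of unstimulated with all 4 eicosanoids, and its repeats without each array, was not run because the differences share 1 array. No paired analysis was possible because each group holds 1 array. Signals near the floor limit HK3, EGLN3 and ADM.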
